A study of Pimephales promelas with 27 samples.

Results

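The experiment on aged process water comprised 9 of the 27 arrays of the series: 3 of newly hatched fathead minnow exposed as embryos to 10 ppm of the aged water, 3 exposed to 20 ppm, and 3 of its salt control. The arrays were chosen by the exposure in their labels. Fathead minnow (Pimephales promelas) is a small freshwater fish widely used in toxicity testing, and the labels name no strain, age in days or genotype. The series asked how larvae respond to doses of process water, fresh or aged, and of pure naphthenic acids after exposure from embryo to hatch, each source having a salt control of its own. The labels do not say what was counted in the ppm of the process water, what the salt control held, how the water was aged, or whether the 3 arrays of a group came from separate tanks. The p-values therefore measure a spread between arrays that may be partly technical. In the main fit this spread is estimated over all 27 arrays.

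Process water is what remains after bitumen is washed out of oil sand. Its organic fraction includes naphthenic acids, a broad mixture of carboxylic acids of petroleum that is a main contributor to the toxicity of fresh process water to fish. Storage of such water allows microbes to degrade part of this mixture, so an aged water can differ in composition from a fresh one.

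The RNA was total RNA on one-colour Agilent arrays, and the level of a probe is given throughout in log2 units as its processed signal relative to the 75th percentile of the array. Of 15208 probes, 10663 were well above background on all 9 aged arrays and were kept. They were split at the median of their mean level over the 9 arrays into 5331 bright and 5332 dim probes. Whole larvae were measured, so a higher level per cell and more cells of a type cannot be told apart. The probes carry names of sequences and not of genes, and 0 of them matched the 64593 genes of the fathead minnow reference table (assembly fPimPro1.hap1.1). No tissue marker could therefore be checked, and single probes are given by their array identifiers.

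The 9 arrays were not alike in their dim probes, and 4 of them stood apart. Probes were ranked by brightness into 10 equal bins, and the median deviation of each bin was taken from the mean of 17 fresh and pure arrays (all but replicate 1 of fresh 10 ppm, whose dim probes were raised in the same way). In the dimmest bin it was 4.56 on salt replicate 9, 2.60 on 20 ppm replicate 6, 1.52 on salt replicate 7 and 0.82 on 20 ppm replicate 4. The 5 other aged arrays, which are all 3 of 10 ppm, salt replicate 8 and 20 ppm replicate 5, lay between −0.08 and 0.36. The raised arrays were thus 2 of 3 in the salt control, 2 of 3 at 20 ppm and 0 of 3 at 10 ppm. In the brightest bin 8 of the 9 arrays lay between −0.03 and 0.10, while salt replicate 9 lay at −0.60.

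**Figure D1:**
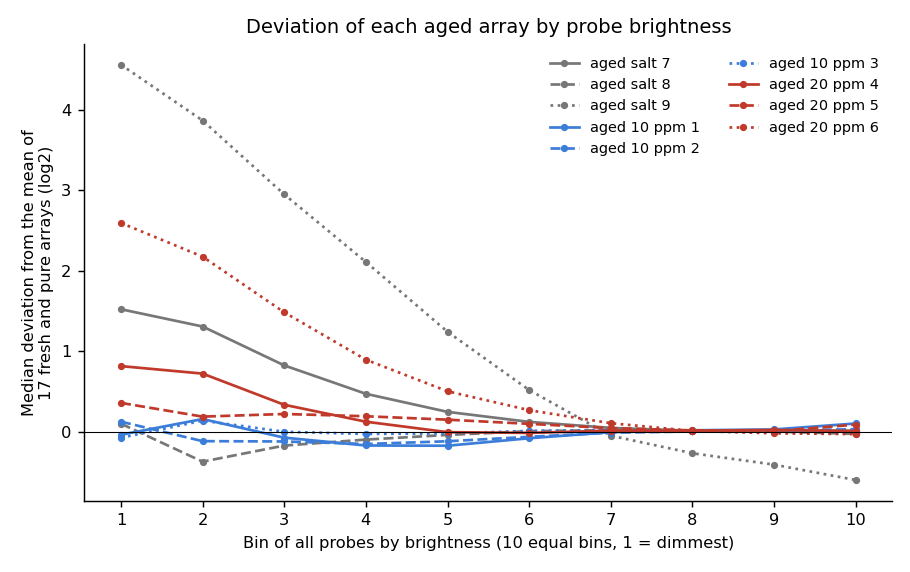
Median deviation of each of the 9 aged arrays from the mean of 17 fresh and pure arrays (vertical axis, log2) in 10 equal bins of all probes by brightness (horizontal axis, the dimmest bin at the left). Lines are arrays, numbered by replicate. Salt replicates 7 and 9 and 20 ppm replicates 4 and 6 rise toward the dimmest bin, up to 4.56 on salt replicate 9, and that array alone falls to −0.60 in the brightest bin.

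The spike-in probes, which report RNA added to every sample in fixed amounts, moved with this split. The 3 dimmest spike-in probes had a mean log2 signal, before any scaling, of 10.6 on salt replicate 9, 7.19 on 20 ppm replicate 6, 5.93 on salt replicate 7 and 4.90 on 20 ppm replicate 4. They lay between 2.50 and 3.58 on the 5 other aged arrays and between 2.58 and 3.47 on the 17 fresh and pure arrays. The 3 brightest spike-in probes did not separate the raised arrays, with 14.0 to 15.0 on them and 13.7 to 15.3 on the 5 others. Salt replicate 9 also had the highest median signal of negative control spots among the aged arrays, 27.7, against 3.60 to 6.56 on the other 8. Spots flagged as not uniform numbered 0 to 346 on the raised arrays and 0 to 4 on the other aged arrays. The part of these differences in the results below was not tested, and the main results are also given without the 4 arrays.

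**Figure D2:**
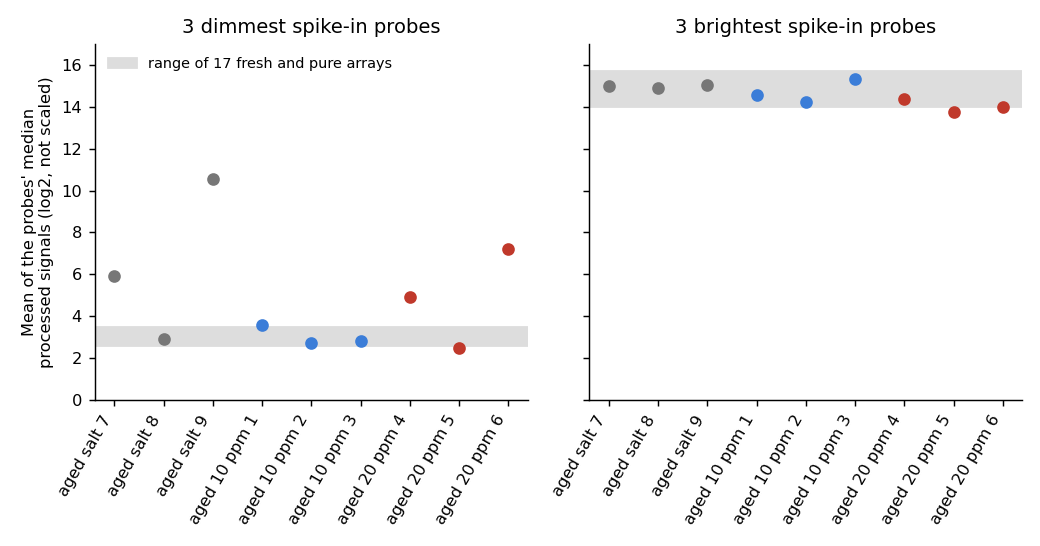
Mean over 3 spike-in probes of the median processed signal of their spots (vertical axis, log2, not scaled) on each aged array (points, grey for salt, blue for 10 ppm, red for 20 ppm). The grey band is the range of 17 fresh and pure arrays. The dimmest probes (left) lie above the band on the 4 raised arrays, from 4.90 to 10.6. On 10 ppm replicate 1 they lie just above it, at 3.58 against a top of 3.47. The brightest probes (right) lie between 13.7 and 15.3 on all 9.

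The authors' deposited values departed from the scanner files on the 4 raised arrays, and 2 of their columns ranked all probes most like another array's file. Over all probes the Spearman correlation of a column with its own file was 0.871 to 0.982 on the 4 raised arrays. It was 0.977 on fresh 10 ppm replicate 1. On the 5 other aged arrays and the 17 fresh and pure arrays it was at least 0.9996. Over all probes, the authors' column of salt replicate 9 ranked the probes most like the scanner file of 20 ppm replicate 6 (Spearman 0.956, against 0.934 for its own file), and the column of 20 ppm replicate 6 most like the file of salt replicate 9 (0.930 against 0.871). In the brightest bin both columns followed their own files, with a correlation of deviations across probes of 0.730 for salt replicate 9 and 0.888 for 20 ppm replicate 6. The scanner files were used as labelled, and both arrays are among the 4 left out below.

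In the brightest bin the salt arrays resembled each other more than they resembled the exposed arrays. Deviations from the mean of the 17 fresh and pure arrays correlated across the 1521 probes at 0.44 to 0.47 in the 3 pairs of salt arrays. The 18 pairs of an exposed and a salt array had correlations of −0.16 to 0.35 with a median of 0.09, and the 15 pairs of exposed arrays 0.09 to 0.47 with a median of 0.33. These are descriptions across probes of arrays that share slides, and probes are not independent replicates.

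With both doses averaged, 80 bright probes rose and 1 fell against the aged salt control, in limma's test over all 27 arrays with a Benjamini-Hochberg adjusted p below 0.05. The rises were 1.5% of the 5331 bright probes and the fall was 0.0188%. At 10 ppm alone 27 bright probes rose (0.506%) and 1 fell (0.0188%), and at 20 ppm alone 42 rose (0.788%) and 0 fell, where 762 had an unadjusted p below 0.05. In log2 units the called rises lay between 0.62 and 1.91 at 10 ppm (median 1.13) and between 0.54 and 3.44 at 20 ppm (median 1.18). Of the 27 rises at 10 ppm 18 were at least a doubling, and so were 30 of the 42 at 20 ppm. Among the probes that rose at single doses 21 were called at both, which is 21 of 27 and 21 of 42, in comparisons that share their 3 salt arrays.

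Those calls rest on the spread estimated over all 27 arrays. A fit of the 9 aged arrays alone, with 6 residual degrees of freedom in place of 18, called 0 bright and 0 dim probes at 10 ppm, at 20 ppm and for both doses. At an unadjusted p below 0.05 limma then had 457, 354 and 570 bright probes in that order, among them all 80 rises, whose lowest adjusted p was 0.198. With a trended and robust estimate of the spread, added after the data had been seen, the same 9 arrays gave 0 bright calls at 10 ppm, 3 rises at 20 ppm and 15 rises for both doses, 14 of them among the 80. The median SD within groups of a bright probe was 0.240 on the 9 aged arrays and 0.200 on the 18 fresh and pure arrays. For the 80 rises it was 0.302 and 0.203.

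**Figure D3:**
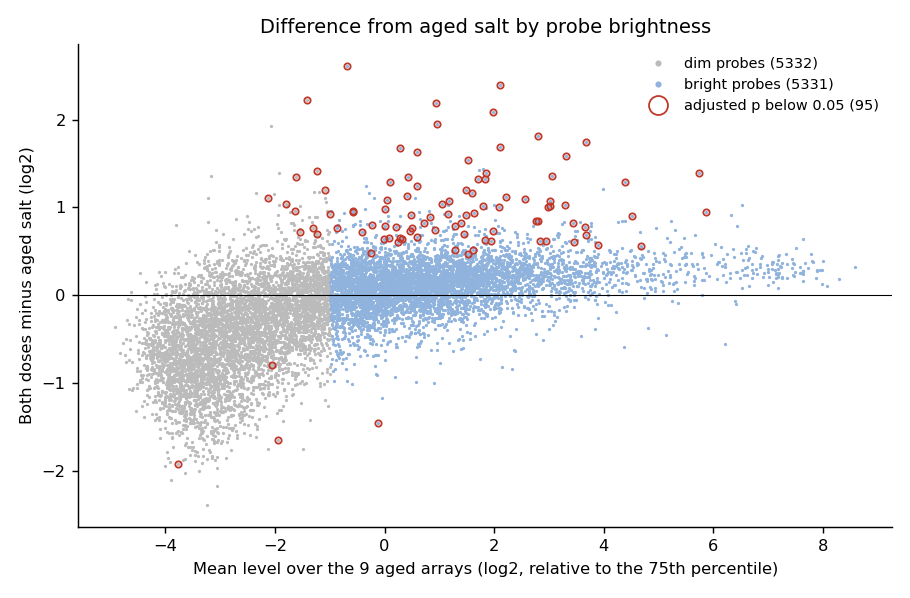
Difference between both doses and aged salt (vertical axis, log2) against the mean level over the 9 aged arrays (horizontal axis, log2 relative to the 75th percentile) for 5332 dim probes (grey) and 5331 bright probes (blue). Red circles mark the 95 probes called in the fit of 27 arrays. Dim probes lie mostly below 0, with a median of −0.40, and bright probes mostly above it, with a median of 0.15.

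The whole body of bright probes was shifted upward by a small amount, against which the rises are to be read. The median difference of all bright probes was 0.15 at 10 ppm and 0.14 at 20 ppm, and 3842 of 5331 lay above 0 for both doses together. Without salt replicate 9 the medians were 0.02 and 0.01, and without the 4 raised arrays 0.03 and 0.04. Every exposed array lay above every salt array for 13.4% of bright probes at 10 ppm and below every salt array for 4.5%. At 20 ppm these shares were 11.9% and 3.17%, and over both doses 6.42% and 1.39%. The median bright level of an array was 0.78, 0.75 and 0.44 on salt replicates 7, 8 and 9, and 0.74 to 0.78 on the 6 exposed arrays, so that salt replicate 9 alone lay apart.

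The 80 rises of both doses lay between 0.47 and 2.61 in log2 units, with a median of 0.93 or 1.90-fold, and 35 of them were at least a doubling. Their median was 0.92 at 10 ppm and 0.95 at 20 ppm. Of the 80, 26 were also called at 10 ppm alone, 40 at 20 ppm alone, 21 at both and 35 at neither. For 77 of the 80 every exposed array lay above every salt array, against 342 (6.42%) of all bright probes, a count that the choice of the probes in part fixes. Their mean level over the 9 arrays had a median of 1.50, from −0.87 to 5.87, against 0.72 for all bright probes. Names of assembled contigs belonged to 92.5% of the 80 and to 92.4% of all bright probes. Of the 80, 2 had a second probe of the same sequence name on the array, and the 1 such probe that was kept lay 0.93 higher in both doses and did not pass (limma adjusted p = 0.222).

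Array by array, the median level of the 80 probes minus that of all bright probes was 0.27, 0.28 and −0.12 on salt replicates 7, 8 and 9. It was 0.97, 1.04 and 1.24 on the 10 ppm arrays in the order of replicates 1 to 3, and 1.05, 0.999 and 0.976 on 20 ppm replicates 4, 5 and 6. The groups did not overlap, which the choice of the probes favours, and the 20 ppm arrays lay within the wider range of the 10 ppm arrays, of which replicate 3 was the highest. Salt replicate 8, which was not raised, lay as low as salt replicate 7, which was.

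The other 18 arrays took no part in the difference that chose the 80 probes, although they enter the spread, and there the same probes were also higher in exposed larvae. On the same measure the 6 fresh and pure salt arrays lay between −0.01 and 0.26, and the 12 fresh and pure exposed arrays between 0.68 and 1.55. Against their own salt control the 80 probes had a median difference of 0.57 in the fresh 5 ppm group, with 78 above 0, and of 0.63 in the fresh 10 ppm group, with 79 above 0. At pure 1.25 and 2.5 ppm the medians were 0.67 and 1.06, with 80 of 80 above 0 at both. The medians of all bright probes were 0.03, −0.01, 0.01 and 0.01 in these comparisons. Of the 80, 13 were called as rises at fresh 5 ppm, 24 at fresh 10 ppm, 22 at pure 1.25 ppm and 61 at pure 2.5 ppm, where the rises among all bright probes were 0.263%, 0.732%, 0.469% and 3.51%. The doses of the sources differ, so their sizes are set side by side and not compared, except at the shared label of 10 ppm below.

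**Figure D4:**
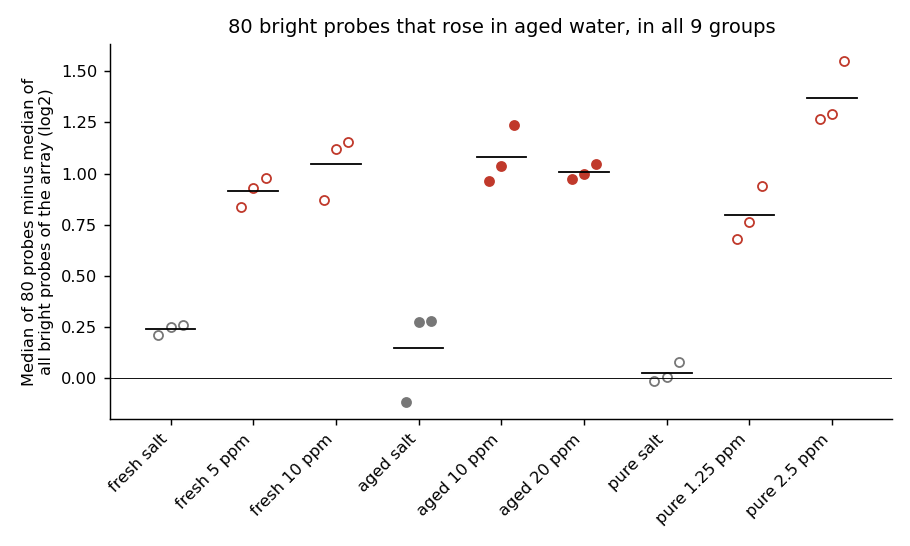
Median level of the 80 bright probes that rose in aged process water minus the median of all bright probes of the array (vertical axis, log2), for the 3 arrays of each of the 9 groups (points, in ascending order, filled for aged groups, grey for salt, red for exposed) with the group mean (bars). The 9 salt arrays lie between −0.12 and 0.28 and the 18 exposed arrays between 0.68 and 1.55. The aged arrays chose the probes.

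The count of rises depended on single salt arrays. Without salt replicate 9, 19 bright probes were called for both doses, all of them rises, with 10 at 10 ppm and 19 at 20 ppm, and the median of the 80 was 0.70. Without salt replicate 8, the salt array that was not raised, 417 bright probes rose and 25 fell for both doses, and 431 rose and 43 fell at 10 ppm. For both doses 49 bright probes were called without 10 ppm replicate 3 and 53 without 20 ppm replicate 5. At 10 ppm the count was 16, 14 and 8 without 10 ppm replicates 1, 2 and 3, 16 without 20 ppm replicate 6 and 43 without salt replicate 7. At 20 ppm it was 24, 24 and 20 without 20 ppm replicates 4, 5 and 6.

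Without the 4 raised arrays, which leaves 1 salt array and 1 array at 20 ppm that are assumed to vary like the other groups, 4 bright probes rose for both doses, 1 at 10 ppm and 0 at 20 ppm. All 4 were among the 80. The 80 then had a median of 0.71, with 80 of 80 above 0, against 3009 of all 5331 bright probes. The aged arrays that remain also chose the 80 probes, which in part fixes this direction. All bright probes had a median of 0.04 in that fit. In the fit of 27 arrays 1108 of 5331 bright probes had an unadjusted p below 0.05 for both doses, against 224 without the 4 arrays.

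Arrays lay on 4 slides, each with 1 scan time, and 3 slides held both exposed and salt arrays. On slide 2, 10 ppm replicate 3 lay above salt replicate 7 in 79 of the 80 probes, by a median of 0.80, while the median of all bright probes was −0.02. On slide 3, 20 ppm replicate 4 lay above salt replicate 8 in 80 of 80 by a median of 0.64, with 0.03 for all bright probes. On slide 4, 10 ppm replicate 1 and 20 ppm replicate 5 lay above salt replicate 9 in 80 of 80 by medians of 1.25 and 1.36, with 0.44 for all bright probes at both doses. The pairs without salt replicate 9 thus had smaller differences among the 80, and almost none over all bright probes. These arrays also chose the 80 probes, which in part fixes the direction within each pair. With slide as a fixed block 142 bright probes rose and 3 fell for both doses, 96 and 3 at 10 ppm and 72 and 0 at 20 ppm, and all 80 were called again.

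Between 20 and 10 ppm no bright or dim probe was called (limma, 27 arrays), with 104 bright and 146 dim probes at an unadjusted p below 0.05. Of the 80 rises 46 were higher at 20 ppm, as were 50.9% of all bright probes. The median step of the 80 was 0.05, from −0.43 to 1.66, with 0.00 for all bright probes. Within slides, 52 of the 80 were higher at 20 ppm on slide 4 and 45 on slide 1, where 49.5% and 46.9% of all bright probes were. For the 42 probes that rose at 20 ppm the median step was 0.21 and 36 lay above 0, a direction that their choice at 20 ppm favours. For the 27 probes that rose at 10 ppm it was 0.11, with 16 above 0. With the 4 raised arrays left out, which leaves 1 array at 20 ppm, limma called 0 probes for the step, with 483 at an unadjusted p below 0.05. The median step was then 0.04 for the 80 probes, with 43 above 0, and 0.25 for the 42, with 31 above 0. For the 27 probes that rose at 10 ppm it was −0.05, with 12 above 0.

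The largest rise among bright probes was that of UF_Ppr_AF_111904. Its level was −2.11, −3.21 and −1.97 on salt replicates 7, 8 and 9, −0.57, −1.85 and 0.47 on 10 ppm replicates 1, 2 and 3, and 1.54, 0.73 and 0.76 on 20 ppm replicates 4, 5 and 6. It counts as bright by its mean over the 9 arrays. On the salt arrays it lay near the medians of dim probes, which were −2.56, −2.96 and −1.61 in the same order. All 6 exposed arrays lay above all 3 salt arrays, 10 ppm replicate 2 by the least, as for 6.42% of bright probes. The choice of this probe as the largest rise favours that order. All 3 arrays at 20 ppm lay above all 3 at 10 ppm. The share of bright probes with that order was not counted, so no effect of dose is read from it. UF_Ppr_AF_111904 rose by 2.61 ± 0.40 for both doses (SE, n = 3 arrays a group; limma adjusted p = 0.00123) and by 3.44 ± 0.46 at 20 ppm (limma adjusted p = 3.99e-04), a fold of 10.9. At 10 ppm it was 1.78 ± 0.46 higher and did not pass (limma adjusted p = 0.109). The step from 10 to 20 ppm was 1.66 ± 0.46 and did not pass (limma adjusted p = 0.973, unadjusted p = 0.00164). In the fit of the 9 aged arrays the difference of UF_Ppr_AF_111904 for both doses had an SE of 0.50 and a limma adjusted p of 0.236. Without the 4 raised arrays its difference for both doses was 3.25 and did not pass (limma adjusted p = 0.107), with 2.56 at 10 ppm and 3.94 at 20 ppm, which did not pass either. Without 10 ppm replicate 2 its difference at 10 ppm was 2.38 and passed (limma adjusted p = 0.0174).

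UF_Ppr_AF_111904 also rose in every other exposure of the series. Its mean level was −3.17 ± 0.21 in fresh salt and −3.51 ± 0.35 in pure salt (SD, n = 3), below the −2.43 ± 0.68 of aged salt. Of the aged salt arrays, replicate 8, not raised, lay at −3.21, within the range of fresh salt. The raised replicates 7 and 9 lay at −2.11 and −1.97. UF_Ppr_AF_111904 rose by 3.31 at fresh 5 ppm, 3.42 at fresh 10 ppm, 3.86 at pure 1.25 ppm and 5.82 at pure 2.5 ppm, each ± 0.46 (SE), with a largest limma adjusted p of 0.00513. The aged 10 ppm difference minus the fresh 10 ppm difference was −1.64 ± 0.65, which did not pass (limma adjusted p = 0.159). That value rests on all 3 aged salt arrays, the raised ones among them.

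Second among the rises was UF_Ppr_AF_105826, and its salt arrays were spread widely. Its level was 2.71, 0.08 and −1.26 on salt replicates 7, 8 and 9, 3.13, 2.67 and 2.33 on 10 ppm replicates 1 to 3, and 3.54, 2.22 and 3.52 on 20 ppm replicates 4 to 6. Salt replicate 7 lay within the range of the exposed arrays, so the groups overlapped, and the SD of the salt control was 2.02. UF_Ppr_AF_105826 rose by 2.39 ± 0.52 for both doses (SE; limma adjusted p = 0.0280), while 2.20 ± 0.60 at 10 ppm and 2.58 ± 0.60 at 20 ppm did not pass (limma adjusted p = 0.126 and 0.0625). Without salt replicate 9 its difference for both doses was 1.51 (limma adjusted p = 0.455), and without salt replicate 7 it was 3.49. The call was also lost without 10 ppm replicates 1 or 2 or 20 ppm replicates 4 or 6 (limma adjusted p from 0.0524 to 0.0659). It was lost too in the fit of the 9 aged arrays, where the SE was 0.77 (limma adjusted p = 0.454). At 10 ppm it passed without salt replicate 7 (3.30) or 8 (1.99), and at 20 ppm without salt replicate 7 (3.68). Leaving out the 4 raised arrays drops salt replicate 7 and keeps salt replicate 8, at 0.08, as the only aged salt array. The difference of UF_Ppr_AF_105826 was then 2.38 for both doses, 2.63 at 10 ppm and 2.14 at 20 ppm. Within slides the exposed minus salt difference was −0.38 on slide 2, 3.46 on slide 3, and 4.39 at 10 ppm and 3.48 at 20 ppm on slide 4. In the other sources its differences were −0.48, −0.63, 0.56 and 1.50 in the order of fresh 5 and 10 ppm and pure 1.25 and 2.5 ppm, none of which passed. Its level was 3.22 ± 0.22 in fresh salt and 2.35 ± 0.30 in pure salt (SD, n = 3), within the range of the exposed aged arrays and above the 0.51 ± 2.02 of aged salt.

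The 1 bright probe that fell was UF_Ppr_AF_108874. Its level was 0.98, 0.34 and 1.19 on salt replicates 7, 8 and 9, −1.35, −0.75 and −1.16 on 10 ppm replicates 1 to 3, and −0.16, −0.66 and 0.42 on 20 ppm replicates 4 to 6. The 10 ppm arrays lay below all salt arrays, as for 4.5% of bright probes, whereas 20 ppm replicate 6 lay above salt replicate 8. The choice of this probe as a called fall favours the order at 10 ppm. UF_Ppr_AF_108874 fell by 1.45 ± 0.28 for both doses (SE; limma adjusted p = 0.0125) and by 1.93 ± 0.32 at 10 ppm (limma adjusted p = 0.00676), and at −0.97 ± 0.32 it did not pass at 20 ppm (limma adjusted p = 0.323). Within slides its differences ran from −2.54 to −0.51, and for both doses without the 4 raised arrays it was −1.22, with −1.43 at 10 ppm, neither past the threshold. The call for both doses was lost without salt replicate 9 (−1.27, limma adjusted p = 0.192) and in the fit of the 9 aged arrays (0.252), and the call at 10 ppm without salt replicate 9 or without 10 ppm replicate 1 or 3 (limma adjusted p from 0.0501 to 0.0614). In the other sources it ranged from −0.93 at pure 2.5 ppm to −0.02 at fresh 5 ppm, none past the threshold.

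The fourth probe, UF_Ppr_AF_102855, is the bright probe of smallest p among those that were lower and did not pass. Its level was −0.01, −0.13 and 0.17 on salt replicates 7, 8 and 9, −0.82, −0.59 and −0.58 on 10 ppm replicates 1 to 3, and −0.59, −1.03 and −0.50 on 20 ppm replicates 4 to 6. Every exposed array lay below every salt array, as for 1.39% of bright probes, which its choice by p favours. The difference of UF_Ppr_AF_102855 was −0.70 ± 0.18 for both doses (SE; limma adjusted p = 0.0848), −0.67 ± 0.21 at 10 ppm and −0.72 ± 0.21 at 20 ppm. These were −0.71, −0.53 and −0.90 without the 4 raised arrays, none past the threshold. Without salt replicate 8 it passed for both doses (−0.77, limma adjusted p = 0.0359) and at 10 ppm (−0.74, limma adjusted p = 0.0412).

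**Figure D5:**
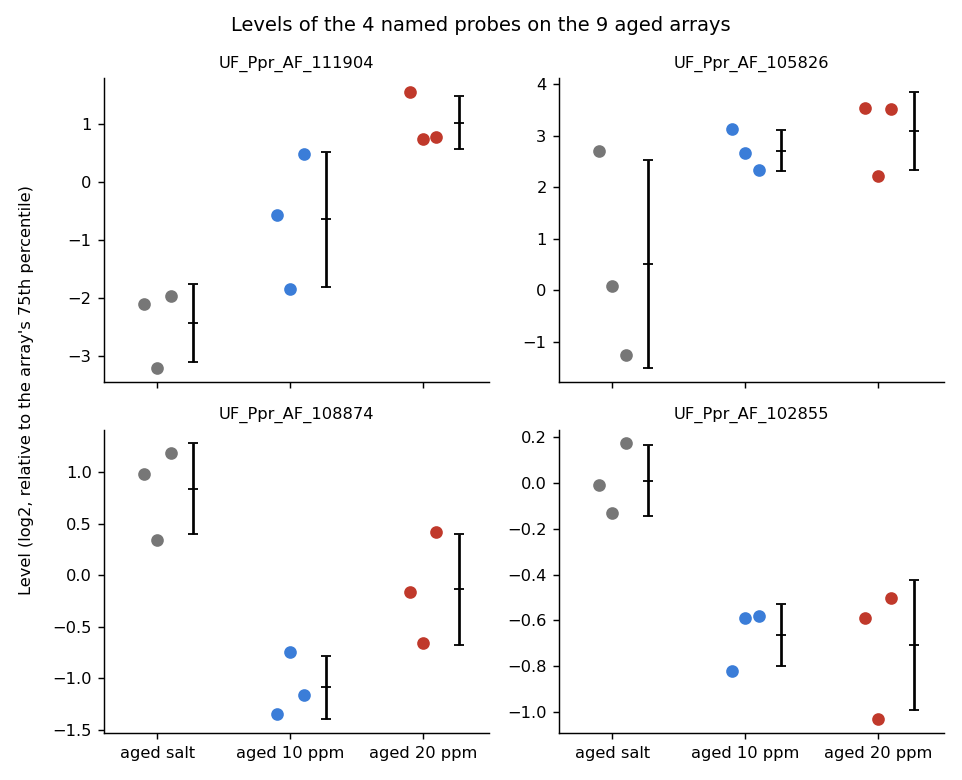
Level of 4 probes (vertical axis, log2 relative to the 75th percentile of the array) on the 3 arrays of aged salt, 10 ppm and 20 ppm (points, in order of replicate number), with the mean and SD of each group at the right of its points. UF_Ppr_AF_111904 lies higher on all exposed arrays, UF_Ppr_AF_105826 overlaps through salt replicate 7 at 2.71, UF_Ppr_AF_108874 overlaps through 20 ppm replicate 6 at 0.42, and UF_Ppr_AF_102855 does not overlap. The vertical scales differ.

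Dim probes as a body lay lower on the exposed arrays than on the salt arrays when all 9 arrays were used. Their median difference was −0.52 at 10 ppm and −0.27 at 20 ppm, with 80.6% of them higher at 20 than at 10 ppm. Without the 4 raised arrays these medians were −0.05 and 0.16, and under quantile normalization of all arrays 0.35 and 0.17. At 20 ppm the direction of dim probes as a body therefore turned with the arrays and with the scaling. At 10 ppm it turned with the scaling, while leaving out the 4 raised arrays made the difference smaller without turning it. At 10 ppm, where the exposed arrays were not raised and 2 of 3 salt arrays were, every exposed array lay below every salt array for 20.9% of dim probes and above for 2.53%. At 20 ppm, with 2 of 3 raised on both sides, the shares were 3.6% and 3.41%.

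Few dim probes passed the threshold with all 9 arrays in use, and many did without salt replicate 8. At 10 ppm 3 rose (0.0563%) and 0 fell, with 1645 at an unadjusted p below 0.05, and at 20 ppm 7 rose (0.131%) and 0 fell, with 300. For both doses 11 rose (0.206%) and 3 fell (0.0563%). Without salt replicate 8, which leaves both raised arrays as the salt control, 53 dim probes rose and 1461 fell at 10 ppm, 8 and 6 at 20 ppm, and 56 and 714 for both doses. Without salt replicate 9 the counts for both doses were 4 and 0, and without salt replicate 7 they were 13 and 11, with 3 and 6 at 10 ppm. For both doses 8, 7 and 7 dim probes were called without 10 ppm replicate 2, 10 ppm replicate 3 and 20 ppm replicate 5. At 20 ppm 4 were called without each of its 3 arrays in turn. In log2 units the 11 rises lay between 0.69 and 2.22 with a median of 1.04, and of 0.99 without the 4 raised arrays. For 9 of them every exposed array lay above every salt array, as for 1.33% of all dim probes, and for all 3 falls every exposed array lay below, as for 1.93%. The choice of the probes in part fixes these counts. All 11 rises were above 0 in each of the 4 fresh and pure comparisons. Of all dim probes 42.6% were above 0 at fresh 5 ppm, 74.2% at fresh 10 ppm, 40.6% at pure 1.25 ppm and 29.6% at pure 2.5 ppm. The fresh 10 ppm group includes its replicate 1, whose dim probes were raised. Medians of the 11 rises ran from 0.81 at fresh 5 ppm to 1.69 at pure 2.5 ppm, and those of all dim probes from −0.19 to 0.35. Of the 11, 3 were called as rises at fresh 5 ppm, 7 at fresh 10 ppm, 5 at pure 1.25 ppm and 10 at pure 2.5 ppm, where 0.075%, 0.544%, 0.225% and 1.26% of all dim probes were. The 3 falls had a median of −1.64 for both doses and of −1.06 without the 4 raised arrays, while in the fresh and pure comparisons their medians lay between −0.56 and 0.07. In the fit of the 9 aged arrays 0 of the 14 were called, and without the 4 raised arrays likewise 0, with a lowest limma adjusted p of 0.0725 among the rises. With slide as a fixed block 15 dim probes rose and 45 fell for both doses, and at 10 ppm 8 rose and 74 fell.

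The dose of 10 ppm was given both as aged and as fresh water, and the effects of the sources at that dose were set against each other in one model. By limma no bright or dim probe was called for the difference between the aged effect and the fresh effect, with 554 bright and 2101 dim probes at an unadjusted p below 0.05. The median difference was 0.19 over bright probes and −0.82 over dim ones, and 0.06 and −0.39 without the 4 raised arrays. Replicate 1 of fresh 10 ppm, whose dimmest bin was raised by 4.26, is in that comparison, and with it left out as well the medians were −0.02 and −0.06. Of the 80 bright rises 60 were higher in the aged than in the fresh comparison, as were 74.9% of all bright probes. Their median was 0.20, close to the median of all bright probes. Without the 4 raised arrays 40 of the 80 were higher, with a median of 0.00, against 3194 of all 5331 bright probes. Without these and fresh 10 ppm replicate 1, 34 of the 80 were higher, with a median of −0.06. Leaving out salt replicate 8 of the aged control gave 172 bright probes with a higher and 62 with a lower aged effect and 18 and 1644 dim probes, and without salt replicate 7 there was 1 call. Without the 4 raised arrays 1 bright probe was called, and without fresh 10 ppm replicate 1 as well 1 bright and 1 dim probe.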

How the data were processed

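Per the file headers, each of 27 one-colour Cy3 arrays was scanned and extracted with Agilent Feature Extraction 10.7.1.1, which gave a processed signal, an intensity on a linear scale, beside median and background intensities and flags. The sources used here do not give its background settings. The authors deposited a table of log2 values of the same arrays, with no scaling or software given.

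From the 15744 spots of an array 536 controls were left out. Probes well above background on all 9 aged arrays were kept, no probe spot of these arrays was saturated, and log2 processed signals minus the 75th percentile were fitted with 9 group means in limma 3.58.1 (R 4.3.3) over all 27 arrays (18 residual degrees of freedom). A call is a Benjamini-Hochberg adjusted p below 0.05 over the 10663 kept probes. Each dose, their mean, the step between doses and the aged minus fresh effect at 10 ppm were tested. The number of arrays limits the precision.

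Named by rule were the bright probes with the 2 largest rises and the 2 largest falls called for both doses, filled up by smallest p. No tissue marker list could be applied. The members and lists were chosen with earlier results of these data known. Alternatives were other normalizations and background corrections, filters, spreads, weights, slide blocks and arrays left out. The normexp correction, with offset 50 on the median signal, was followed by quantile normalization. The fitting was tested on simulated data with independent noise, the same spread of a probe in all groups and no raised arrays. That test therefore cannot say how raised arrays or a wider spread in the aged groups affect the calls.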

Additional observations from a re-analysis of the deposited data

Results flagged for a closer look

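Of the 4545 probes left out for not being well above background on all 9 aged arrays, 1 was well above background on all 6 exposed arrays and on no salt array, which the comparisons did not use. In the opposite direction 3 left-out probes were well above background on all 3 salt arrays and on no exposed array.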

How the results depend on the processing

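Counts are of bright probes called for 10 ppm, 20 ppm and both doses, which were 28, 42 and 81. They were 17, 28 and 33 in the authors' values, 17, 38 and 56 with no filter on dim probes, 57 at 10 ppm with a trended and robust spread, 2, 8 and 10 with array weights (whose estimate did not converge), 99, 72 and 145 with slide as a fixed block, 1, 0 and 4 without the 4 raised arrays and 3, 3 and 4 without these and fresh 10 ppm replicate 1. With no filter the split was made anew over all 15208 probes, so its bright and dim classes are other sets, here and below. The 9 aged arrays alone gave 0, 0 and 0, and 0, 3 and 15 with a trended and robust spread. Leaving out 1 aged array gave 8 to 474, 19 to 49 and 19 to 442. Quantile normalization gave 25, 28 and 58, and normexp followed by quantile normalization 25, 30 and 74. All 80 rises stayed above 0 in 15 of 16 other settings, and 79 with normexp, where their medians ran from 0.64 to 0.98. Several of these settings changed only the spread, the filter or the split of bright and dim probes. They left the differences of the 80 as they were, so the direction could not turn. The other settings used aged arrays that also chose the 80, which favours the same direction. Leaving out fresh 10 ppm replicate 1 as well likewise changed no difference from aged salt. The authors' values, which depart from the scanner files on the raised arrays, called 33 of the 80 again, and quantile normalization 53. The cause of these shifts was not tested.

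The median difference of bright probes at 10 ppm was 0.0342 when arrays were scaled to the median of bright probes. That scaling makes the bright median equal on all arrays, so a small difference follows from the scaling itself. In the authors' values the median difference was 0.0142 at 10 ppm and −0.0762 at 20 ppm. Without the 4 raised arrays, with or without fresh 10 ppm replicate 1, it was 0.0267 at 10 ppm. Leaving out 1 array gave 0.0151 to 0.227 at 10 ppm and 0.0124 to 0.207 at 20 ppm. For dim probes at 10 ppm the median was 0.35 with quantile normalization, 0.13 with normexp, 0.24 in the authors' values, −1.22 with no filter and −0.0471 without the 4 raised arrays, with or without fresh 10 ppm replicate 1, and leaving out 1 array gave −0.74 to −0.21 at 10 ppm and −0.51 to 0.10 at 20 ppm. Over 25 alternatives the 4 named probes kept their direction, and the calls for both doses held in 21, 16 and 18 of them for UF_Ppr_AF_111904, UF_Ppr_AF_105826 and UF_Ppr_AF_108874. Those that changed only the spread or the filter could not change a direction. The other split of bright and dim probes repeats the main fit of each probe.

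The step between doses had 0 calls in every alternative run. The aged minus fresh effect at 10 ppm had 1 call without the 4 raised arrays, also without fresh 10 ppm replicate 1, and 0 to 234 with 1 array left out. No paired analysis was possible because the aged groups share no replicate number. For aged minus fresh, with the replicate number as a block, 0 bright probes were called and 444 had an unadjusted p below 0.05. Same-numbered arrays of aged and fresh groups correlated at −0.09 to 0.19, so the numbers were not taken as pairs. The number of arrays, 3 a group, limits the precision, and 4 of the 9 had raised dim signals.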

Other observations

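Over the 3 dimmest of 10 equal bins of probes by brightness, deviations from the mean of 17 fresh and pure arrays correlated across 4563 probes at 0.60 to 0.84 in the 6 pairs of raised aged arrays and at −0.09 to 0.39 in the other 30 pairs of aged arrays. Of the left-out probes 174 were well above background on the 4 raised arrays and on none of the other 5 aged arrays, 213 were so on those 5 arrays and left out for a raised one, and 330 were not well above background on any aged array.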
